A study of Mus musculus with 9 samples.

Results

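Chemokine ligands and chemokine receptors were followed in fracture callus RNA. Members were the rows of the gene table whose symbol was Ccl, Cxcl, Xcl or Cx3cl with a number for ligands, or Ccr, Cxcr, Xcr, Cx3cr or Ackr with a number for receptors. They came to 60 of 22054 genes, of which 38 were ligands and 22 receptors. Pf4 and Ppbp, chemokines with other symbols, were kept outside and are given with the pathway genes. Male C57BL/6J mice, 7 weeks old by the labels, had the left femur fractured at midshaft and fixed with a needle in the marrow cavity, and callus RNA was sequenced on day 7. From the day after surgery they were injected intraperitoneally each day for 1 week with 200 μl of 1 of 3 solutions. H-151, a covalent inhibitor of the innate immune adaptor STING, was given at 750 nmol, SR-717, a STING agonist, at 30 mg/kg, and PBS served as the control. Each group had 3 libraries, the strain was the same throughout, and no gene was deleted. The drugs were given to the whole animal, and the labels do not say whether libraries with different numbers came from different mice, so that p-values measure the spread between these libraries only.

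Chemokines are small secreted proteins that direct the migration of leukocytes through G protein-coupled receptors on the migrating cell. CXC ligands with an ELR motif attract neutrophils through Cxcr2, Cxcl9 and Cxcl10 attract activated T and NK cells through Cxcr3, Ccl2 and its neighbours attract monocytes through Ccr2, and Ccl3 and Ccl5 act on Ccr1. In bone, Cxcl12 from stromal cells holds haematopoietic cells in the marrow through Cxcr4, and atypical receptors of the Ackr family bind chemokines without classical G protein signalling.

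The libraries held 16987398 to 23272480 counts. On the first principal component of all tested genes, which held 46.6% of the variance, SR-717 replicate 1 lay at 100.6 and PBS replicate 1 at 38.8, while the other libraries lay between -28.8 and -4.03. Results that rest on these libraries are given with and without them. Bone and cartilage were found in every library by their markers: 6 of 6 osteoblast markers had counts in all 9 libraries and summed to between 1384 and 6610 CPM, the counts of a gene scaled to a fixed library size, and 6 of 6 chondrocyte markers summed to 235 CPM in SR-717 replicate 1, to 1533 CPM in PBS replicate 1 and to between 4461 and 16021 CPM in the other libraries. Skeletal muscle markers summed to between 3921 and 22255 CPM. Erythroid markers summed to 317 CPM in PBS replicate 1, to 623 CPM in SR-717 replicate 1 and to between 1132 and 10839 CPM in the other libraries. Levels per library are given below as CPM after TMM scaling, and levels of different genes are compared by the authors' TPM, which is scaled for transcript length.

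The ligands that attract neutrophils were among the members with the widest spread. On chromosome 5 of GRCm38, Cxcl5 (90759360 to 90761624), Cxcl3 (90786103 to 90789600), Cxcl1 (90891241 to 90893115) and Cxcl2 (90903871 to 90905938) lie on the plus strand within 1 cluster. Cxcl1, Cxcl2 and Cxcl3 shared their highest libraries, SR-717 replicate 1 and PBS replicate 1. Their promoters share a stretch of letters that few other promoters hold. For these reasons the sequences just before their annotated starts are shown. They run 5′ to 3′ on the plus strand, from RefSeq for GRCm38.p6, at chr5:90891141-90891240, chr5:90903771-90903870 and chr5:90786001-90786100. Capitals mark GGAATTTCC, the letters of an NF-κB type motif, searched for on both strands of the 250 bases before each start.
Cxcl1: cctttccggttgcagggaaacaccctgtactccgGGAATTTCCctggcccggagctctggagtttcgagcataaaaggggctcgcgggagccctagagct
Cxcl2: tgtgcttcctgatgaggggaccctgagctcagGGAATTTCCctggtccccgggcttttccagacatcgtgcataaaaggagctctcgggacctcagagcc
Cxcl3: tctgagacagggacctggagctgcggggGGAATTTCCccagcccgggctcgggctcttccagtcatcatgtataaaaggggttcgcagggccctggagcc

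The 46 members with a promoter in the RefSeq table had 53 promoters. GGAATTTCC stood in the promoters of 5 of the 46 members, Cxcl1, Cxcl2, Cxcl3, Cxcl10 and Ccr3, and in 94 of all 32851 promoters (0.286%). Cxcl5, which lies in the cluster with Cxcl1, Cxcl2 and Cxcl3, was not among these 5. A match describes letters and is not a measured binding site.

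Cxcl2, a neutrophil attractant, was present at 92.2, 1.86 and 3.54 CPM in PBS replicates 1, 2 and 3. It was at 16.3, 4.64 and 3.45 CPM in the H-151 libraries and at 334, 4.46 and 7.36 CPM in the SR-717 libraries. The library numbered 1 was the highest in every group, and the 3 groups overlapped because their other libraries lay at similar low levels.

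Cxcl5, also a ligand of Cxcr2, was at 115, 0.888 and 2.87 CPM with PBS, at 24.8, 8.48 and 0.667 CPM with H-151 and at 371, 12.8 and 3.85 CPM with SR-717. Its highest library was 556 times its lowest, a wider span than that of any other tested member whose lowest library was above 0. Cxcl3 was at 27.0, 0.846 and 1.85 CPM with PBS, at 4.51, 1.43 and 2.00 CPM with H-151 and at 137, 2.96 and 2.80 CPM with SR-717. Both ligands followed the order of Cxcl2, with SR-717 replicate 1 highest and PBS replicate 1 next.

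Cxcl1 was at 37.7, 0.550 and 0.731 CPM with PBS, at 2.75, 4.59 and 0.889 CPM with H-151 and at 67.7, 1.83 and 1.52 CPM with SR-717. In the H-151 group replicate 2, not replicate 1, was the highest. Cxcl15, which lies between Cxcl3 and Cxcl1 and was too low to be tested, held 6 counts in all 9 libraries together, and so was near 0 also where its neighbours were high.

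The 5 ELR ligands together summed to 909 CPM in SR-717 replicate 1 and to 271.9 CPM in PBS replicate 1. They summed to 48.4 CPM in H-151 replicate 1, and to between 4.14 and 22.1 CPM in the other 6 libraries. All 11 neutrophil markers had counts in every library, and their sum was 15041 CPM in SR-717 replicate 1, against 2608 to 3995 CPM in the other SR-717 libraries, 613 to 3670 CPM with PBS and 1369 to 4861 CPM with H-151. The markers, like the ligands, had their highest sum in SR-717 replicate 1. For the sum of the markers the likeness did not extend to PBS replicate 1, which was second for the ligands. Single markers differed. PBS replicate 1 was second for Csf3r (143 CPM) and S100a9 (1202 CPM). It was not second for the other listed markers, such as Ngp (769 CPM, against 1409 CPM in H-151 replicate 1). In PBS replicate 1 the markers summed to 3670 CPM, below H-151 replicate 1 (4861 CPM), H-151 replicate 2 (4701 CPM) and SR-717 replicate 2 (3995 CPM). The part of neutrophil content in these levels was not tested, and in bulk tissue fewer or more cells of a type and less or more RNA per cell cannot be told apart.

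**Figure D1:**
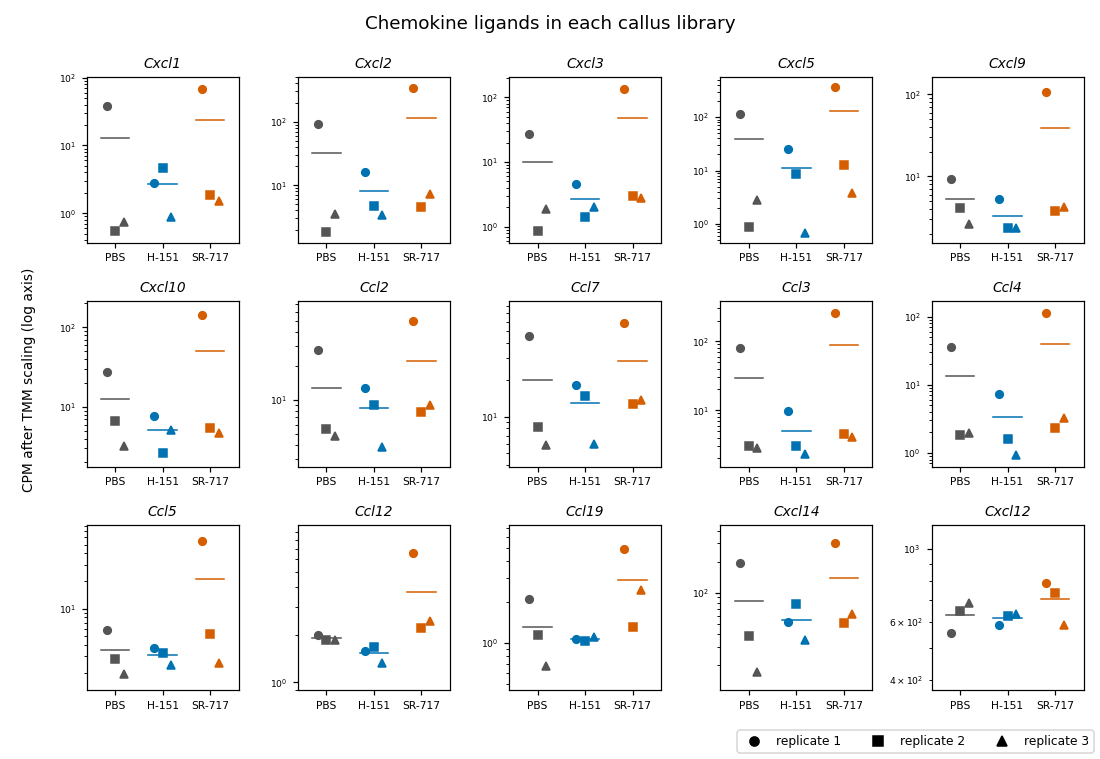
Each panel shows 1 chemokine ligand, with CPM after TMM scaling on a log axis and the groups PBS, H-151 and SR-717 side by side. Points are libraries, with a symbol for each replicate number, and horizontal lines are group means. The libraries numbered 1 stand far above the others for ligands such as Cxcl2 (334 CPM in SR-717 replicate 1), while Cxcl12 lies between 556 and 787 CPM in all 9.

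Cxcl9 and Cxcl10, ligands of Cxcr3 that interferons induce, were high mainly in 1 library. Cxcl9 (chromosome 5, 92321347 to 92328079, minus strand) was at 9.19, 4.14 and 2.64 CPM with PBS, at 5.25, 2.37 and 2.33 CPM with H-151 and at 108, 3.80 and 4.20 CPM with SR-717. Cxcl10 (chromosome 5, 92346638 to 92348889, minus strand) was at 27.6, 6.55 and 3.26 CPM with PBS, at 7.75, 2.66 and 5.17 CPM with H-151 and at 143, 5.35 and 4.73 CPM with SR-717. In SR-717 replicate 1 they stood 26.9 and 28.3 times above the mean of the other SR-717 libraries, and these other libraries lay within the range of the PBS libraries for both genes.

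The promoters of this pair are shown because they hold letters of an interferon-stimulated response element, with capitals marking GAAANNGAA on the strand shown and, in Cxcl10, the NF-κB type letters found on the opposite strand. They run 5′ to 3′ on the minus strand of GRCm38.p6 (RefSeq), from chr5:92328080-92328279 and chr5:92348890-92349109, and the motifs do not overlap.
Cxcl9: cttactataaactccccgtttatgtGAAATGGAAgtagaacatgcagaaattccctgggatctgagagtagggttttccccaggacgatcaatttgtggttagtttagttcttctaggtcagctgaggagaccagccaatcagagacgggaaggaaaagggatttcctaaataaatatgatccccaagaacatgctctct
Cxcl10: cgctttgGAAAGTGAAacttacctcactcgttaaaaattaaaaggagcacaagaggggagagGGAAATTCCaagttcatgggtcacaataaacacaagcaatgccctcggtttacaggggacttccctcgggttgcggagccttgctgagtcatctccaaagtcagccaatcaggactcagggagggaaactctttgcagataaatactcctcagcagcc

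GAAANNGAA was found in the promoters of 8 of the 46 members, Ccl1, Ccl3, Ccl19, Ccr2, Cxcl9, Cxcl10, Cxcl14 and Cxcr1, and in 7.13% of all promoters searched in the same way. Cxcl11, the third ligand of Cxcr3, has no row in the table.

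Among inflammatory CC ligands, Ccl3 and Ccl4 showed the same libraries on top. Ccl3, which attracts monocytes and macrophages through Ccr1, was at 81.4, 3.04 and 2.81 CPM with PBS, at 9.71, 3.06 and 2.28 CPM with H-151 and at 256, 4.46 and 4.03 CPM with SR-717. Ccl4, its neighbour on chromosome 11, was at 36.3, 1.82 and 1.97 CPM with PBS, at 7.41, 1.63 and 0.945 CPM with H-151 and at 113, 2.35 and 3.27 CPM with SR-717. Both were highest in the library numbered 1 of each group.

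Ccl5, made by T cells and many activated cells, was at 5.82, 2.83 and 1.91 CPM with PBS, at 3.68, 3.25 and 2.39 CPM with H-151 and at 54.6, 5.21 and 2.51 CPM with SR-717. Ccl2, the main monocyte attractant, was at 27.6, 5.54 and 4.72 CPM with PBS, at 12.6, 8.92 and 3.84 CPM with H-151 and at 49.5, 7.74 and 9.05 CPM with SR-717. PBS replicate 1 was well above the other PBS libraries for Ccl2, and less so for Ccl5. Ccl7, encoded beside Ccl2, ranged from 5.85 to 58.8 CPM.

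Ccl12, another ligand of Ccr2, was at 2.00, 1.86 and 1.85 CPM with PBS, at 1.57, 1.68 and 1.33 CPM with H-151 and at 6.61, 2.21 and 2.45 CPM with SR-717. It was low, but every SR-717 library lay above every library of the other groups, and every H-151 library lay below every PBS library. Ccl8, a monocyte attractant, was at 22.0, 17.8 and 5.96 CPM with PBS, at 14.0, 24.2 and 8.89 CPM with H-151 and at 75.3, 16.4 and 15.2 CPM with SR-717, so that the groups overlapped.

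Monocyte and macrophage markers, of which 11 of 11 had counts in every library, summed to 3321 CPM in SR-717 replicate 1 and to 1284 and 1405 CPM in the other SR-717 libraries. They summed to between 987 and 1813 CPM with PBS and to between 1116 and 1396 CPM with H-151. The 8 inflammatory CC ligands together held 615 CPM in SR-717 replicate 1 and 222 CPM in PBS replicate 1, against 25.1 to 67.3 CPM in the other 7 libraries. The part of macrophage content in this was not tested.

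Cxcl12 had the highest level of all members, with a mean of 475 TPM over the 9 libraries, and one of the steadiest. It was at 556, 647 and 682 CPM with PBS, at 588, 622 and 635 CPM with H-151 and at 787, 734 and 585 CPM with SR-717. Its highest library was 1.42 times its lowest, and SR-717 replicate 1 was 1.19 times the mean of its group's other libraries. All groups overlapped.

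Ccl9, a myeloid ligand of Ccr1 that osteoclasts and macrophages make, came next with 158 TPM. It was at 244, 219.9 and 234 CPM with PBS, at 202, 176 and 375 CPM with H-151 and at 381, 250.5 and 276 CPM with SR-717. Every SR-717 library lay above every PBS library, while the H-151 libraries spanned both. Ccl6, the related myeloid ligand at 139 TPM, was at 107, 78.5 and 41.9 CPM with PBS, at 104, 101 and 73.7 CPM with H-151 and at 300.3, 102 and 88.9 CPM with SR-717.

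Ccl21a, which guides Ccr7-bearing dendritic and T cells, was listed at 118, 64.0 and 27.1 CPM with PBS, at 70.8, 97.3 and 31.8 CPM with H-151 and at 70.7, 50.9 and 71.4 CPM with SR-717. Ccl21a, Ccl21b and Ccl21d are near-identical copies whose reads the counting could split, so their sum is the safer value. It was 143, 74.6 and 42.0 CPM with PBS, 100.01, 117 and 40.0 CPM with H-151 and 80.4, 64.0 and 84.6 CPM with SR-717, and the groups overlapped.

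Cxcl14, made by fibroblasts and epithelia, was at 194, 37.8 and 16.97 CPM with PBS, at 51.9, 77.2 and 34.7 CPM with H-151 and at 302, 51.3 and 61.8 CPM with SR-717. Ccl19, the other ligand of Ccr7, was at 2.11, 1.14 and 0.674 CPM with PBS, at 1.08, 1.04 and 1.11 CPM with H-151 and at 4.91, 1.31 and 2.45 CPM with SR-717. For Ccl19 every SR-717 library was above every H-151 library, and PBS replicate 1 reached into the SR-717 range.

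Of the 38 ligands, 28 passed edgeR's filter on low counts in at least 1 comparison and 10 did not. The 10 were Ccl1, Ccl17, Ccl20, Ccl21d, Ccl26, Ccl27b, Ccl28, Cxcl13, Cxcl15 and Cxcl17, of which Ccl26, an eotaxin, had no count in any library. Mean TPM was above 10 for 19 ligands and under 1 for 9. Further ligands that passed were Cxcl16 (39.5 to 221 CPM), Cx3cl1 (12.6 to 19.7 CPM), the eotaxins Ccl11 (1.17 to 3.61 CPM) and Ccl24 (0.799 to 1.24 CPM), Ccl22 (1.06 to 4.65 CPM), Ccl25 (0.845 to 1.61 CPM), Ccl27a (0.723 to 2.57 CPM), Ccl21b (0 to 25.9 CPM) and Xcl1 (0.112 to 0.930 CPM).

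Among receptors, Cxcr4, the receptor of Cxcl12, had the highest level, with a mean of 69.3 TPM. It was at 89.2, 47.3 and 22.4 CPM with PBS, at 57.5, 64.5 and 37.0 CPM with H-151 and at 123, 57.4 and 39.3 CPM with SR-717. Within PBS it differed more between libraries than the group means differed.

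Ccr1, a receptor of Ccl3, Ccl5, Ccl6 and Ccl9 on myeloid cells and osteoclast precursors, was at 79.0, 53.1 and 79.9 CPM with PBS, at 55.3, 41.1 and 97.2 CPM with H-151 and at 245, 73.3 and 73.9 CPM with SR-717. Ccr2, which marks inflammatory monocytes, was at 24.2, 11.9 and 11.6 CPM with PBS, at 21.9, 13.6 and 17.3 CPM with H-151 and at 90.8, 30.7 and 11.4 CPM with SR-717. Both were highest in SR-717 replicate 1, and SR-717 replicate 3 was within the range of the PBS libraries for Ccr1 and just below it for Ccr2.

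Cxcr2, the neutrophil receptor of the ELR ligands, was at 33.6, 8.07 and 1.74 CPM with PBS, at 19.1, 11.8 and 3.50 CPM with H-151 and at 149, 8.07 and 4.67 CPM with SR-717. Cxcr3, the receptor of Cxcl9 and Cxcl10, was low, at 2.74, 1.65 and 0.787 CPM with PBS, at 1.52, 1.68 and 0.834 CPM with H-151 and at 3.77, 2.02 and 1.23 CPM with SR-717. Cxcr3 in SR-717 replicate 1 was thus 1.38 times its level in PBS replicate 1, whereas Cxcl9 there was 11.7 times and Cxcl10 5.16 times the PBS replicate 1 level.

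Cx3cr1, the receptor of Cx3cl1 on monocytes and osteoclast precursors, was at 17.7, 18.2 and 20.3 CPM with PBS, at 26.9, 19.0 and 17.7 CPM with H-151 and at 30.1, 27.0 and 21.4 CPM with SR-717. Every SR-717 library lay above every PBS library, and PBS libraries lay close together. The H-151 libraries overlapped both groups.

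Ackr3, an atypical receptor that removes Cxcl12, was at 40.0, 48.5 and 45.8 CPM with PBS, at 41.8, 56.8 and 37.9 CPM with H-151 and at 33.4, 35.3 and 37.5 CPM with SR-717. Every SR-717 library lay below every library of both other groups. Ackr4 was at 18.3, 17.2 and 36.1 CPM with PBS, at 18.7, 22.7 and 34.0 CPM with H-151 and at 11.8, 23.2 and 26.5 CPM with SR-717, with overlapping groups.

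Ackr1, an atypical receptor of red cells and venules, was at 14.3, 11.2 and 3.82 CPM with PBS, at 20.6, 13.5 and 7.73 CPM with H-151 and at 24.6, 8.07 and 11.0 CPM with SR-717. Of the 22 receptors, 15 passed the filter in at least 1 comparison. The 7 that did not were Ccr4, Ccr6, Ccr8, Ccr9, Ccr10, Cxcr1 and Xcr1. Mean TPM was above 10 for 8 receptors and under 1 for 8, and other tested receptors were Ackr2 (2.37 to 4.78 CPM), Ccr3 (1.11 to 6.20 CPM), Ccr7 (0.731 to 6.15 CPM), Cxcr5 (0.450 to 3.10 CPM) and Cxcr6 (0.281 to 4.08 CPM).

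**Figure D2:**
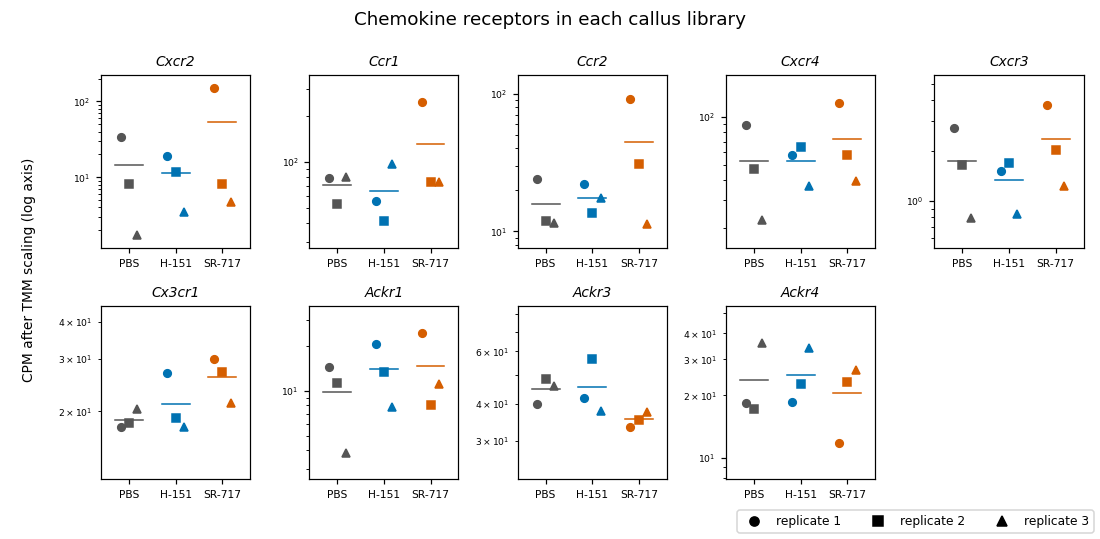
Each panel shows 1 chemokine receptor, with CPM after TMM scaling on a log axis in the PBS, H-151 and SR-717 groups. Points are libraries, with a symbol for each replicate number, and horizontal lines are group means. The SR-717 points of Ackr3 (33.4 to 37.5 CPM) lie below all points of the other groups, whereas Cxcr2 spans 1.74 to 149 CPM.

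Among the 43 members tested, SR-717 replicate 1 was the highest of the 9 libraries for 32, made up of 21 ligands and 11 receptors. The share of all genes for which it was the highest of the 9 was not counted. Within the SR-717 group it was the highest for 34 of the 43 members, beside 41.2% of all genes tested. In 19 of the 43 (44.2%) the library numbered 1 was the highest of its group in all 3 groups, against 11.1% of the 14256 genes tested in any comparison. The 19 were 14 of 28 tested ligands and 5 of 15 tested receptors. This pattern was noticed in the data and is given as a description, and the labels do not say what libraries of the same number share.

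The comparison of SR-717 with H-151 set the agonist against the inhibitor. Ccl19, Ccl12, Cxcl3 and Cxcl9, 4 of the 43 members tested, rose past the thresholds of an unadjusted p under 0.05 and 1.5-fold, where 0.367% of all tested genes did, and 0 fell past them, where 0.389% did. The log2 fold changes were 1.41 for Ccl19 (SE 0.50, edgeR unadjusted p = 0.0295), 1.28 for Ccl12 (SE 0.48, edgeR unadjusted p = 0.0364), 4.14 for Cxcl3 (SE 1.68, edgeR unadjusted p = 0.0462) and 3.52 for Cxcl9 (SE 1.43, edgeR unadjusted p = 0.0464). Each had an adjusted p of 0.996, and 0 of 43 members reached an adjusted p under 0.05, nor did any gene (0%). The members at an unadjusted p under 0.05 were the same 4 with edgeR, while DESeq2 put 0 members at an adjusted p under 0.05 and 3 past the thresholds, where 1.04% of genes rose past them. Ccl19 and Ccl12 were among these 3. DESeq2 gave no p for Cxcl3 and Cxcl9, so that the 3 include a member outside the 4.

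The calls rested on single libraries, and the fold changes mainly on SR-717 replicate 1. Without SR-717 replicate 1 the log2 fold change was 0.79 for Ccl19 (edgeR unadjusted p = 0.0806), 0.60 for Ccl12 (edgeR unadjusted p = 0.0831), 0.11 for Cxcl3 (edgeR unadjusted p = 0.836) and 0.26 for Cxcl9 (edgeR unadjusted p = 0.561), and 0 members passed, where 0.498% of genes rose. The count was also 0 without H-151 replicate 1 or 2, where 0.405% and 0.133% of genes rose. It was 1 without H-151 replicate 3, where 0.383% of genes rose. In these fits the log2 fold change was 1.39 to 1.43 for Ccl19 and 1.19 to 1.36 for Ccl12. It was 3.85 to 4.78 for Cxcl3 and 3.32 to 4.02 for Cxcl9. By contrast, 10 passed without SR-717 replicate 2, where 214 of 14299 genes did, and 13 without SR-717 replicate 3, where 544 of 14339 genes did.

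Several ligands had larger fold changes than Ccl19 and Ccl12, with larger standard errors, and did not pass. The log2 fold change of SR-717 over H-151 was 4.11 for Ccl3 (SE 1.78), 3.81 for Cxcl2 (SE 1.76), 3.54 for Ccl4 (SE 1.69) and 3.49 for Cxcl5 (SE 1.90). It was 3.28 for Cxcl10 (SE 1.43, edgeR unadjusted p = 0.0595), 3.09 for Cxcl1 (SE 1.57) and 2.73 for Ccl5 (SE 1.15, edgeR unadjusted p = 0.0533). Among receptors it was 2.21 for Cxcr2 (SE 1.38), 1.32 for Ccr2 (SE 0.70) and -0.37 for Ackr3 (SE 0.18, edgeR unadjusted p = 0.0829).

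The log2 fold change was above 0 for 35 of the 43 members, with a median of 0.89 beside 0.02 over all genes tested. Without SR-717 replicate 1 it was above 0 for 23, with a median of 0.02. The groups did not overlap with SR-717 higher for Ccl12 and Ccl19, 2 of 43 members beside 2.67% of genes, and with SR-717 lower for Ackr3, 1 member beside 2.52% of genes.

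**Figure D3:**
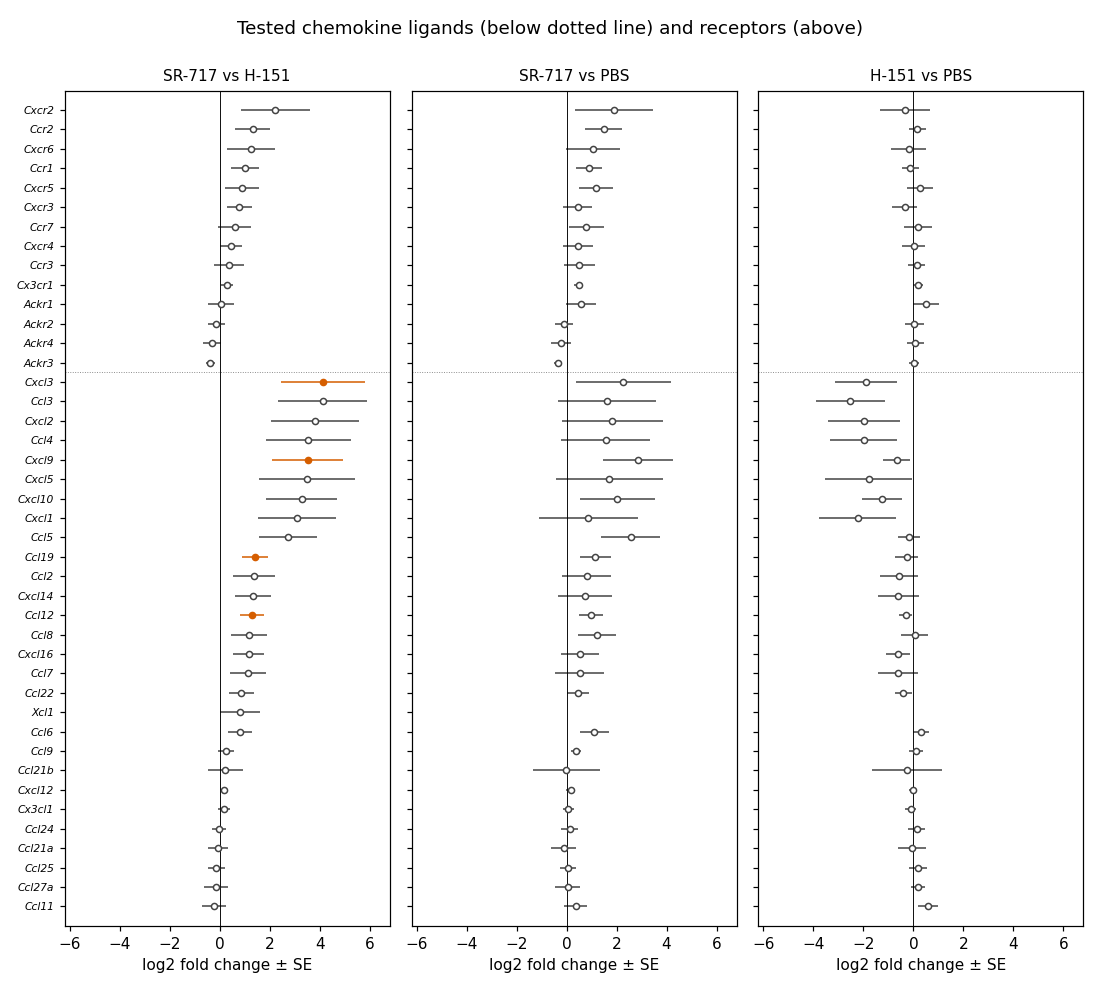
Panels show the 3 comparisons, with the log2 fold changes of tested chemokine ligands and receptors on the horizontal axis, bars of 1 SE and filled points for members past the thresholds. Most points lie right of 0 for SR-717 against H-151 and against PBS, and the ELR ligands, Ccl3, Ccl4 and, against PBS, Ccl21b are among the members with the widest bars.

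The comparison of SR-717 with PBS asked what the agonist changed. In the fit without pairing 0 of 42 members rose past the thresholds, where 0.27% of genes did, and 0 fell, where 0.249% did. Cx3cr1 was at a log2 fold change of 0.48 (SE 0.19, edgeR unadjusted p = 0.0398), which is 1.40-fold and so under the threshold of fold, and edgeR put no other member below 0.05 before adjustment. Ackr3 was at -0.34 (SE 0.15, edgeR unadjusted p = 0.0577). At an adjusted p under 0.05 there were 0 members and 0% of genes, and DESeq2 gave 0 members at that level and 4 at an unadjusted p under 0.05, of which Ccl5 and Ccr2 passed the thresholds, where 0.661% of genes rose past them. Without SR-717 replicate 2, 3 members and 77 of 14220 genes rose past the thresholds, and without SR-717 replicate 3, 6 members and 261 of 14362 genes.

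Libraries of these groups numbered 1 and 2 deviated together over all genes (r = 0.65 and 0.34). For number 3 r was 0.14, and SR-717 replicate 3 correlated more with a PBS library of another number (r = 0.34). Because both libraries numbered 1 stood apart, r among the other numbers cannot show that they are paired. The paired values below assume that the numbers pair these libraries, which the labels do not say. SR-717 and PBS libraries were also compared within numbers, where number 3 is the weakest pair. With the replicate number as a block, 13 of 42 members rose past the thresholds, where 2.43% of genes did, and 0 fell, where 0.718% did. The 13 were the ELR ligands Cxcl1, Cxcl2, Cxcl3 and Cxcl5, the CC ligands Ccl2, Ccl3, Ccl4, Ccl6, Ccl7 and Ccl19, Cxcl14, and the receptors Ccr2 and Cxcr2. All had an adjusted p of 0.999, so that none passed a correction over all genes.

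Cxcl2 had the smallest p of the 13. SR-717 over PBS it stood at 3.62-fold, 2.40-fold and 2.08-fold in pairs 1, 2 and 3, and its blocked log2 fold change was 1.42 (SE 0.22, edgeR unadjusted p = 0.00141). Cxcl1 stood at 1.80-fold, 3.33-fold and 2.08-fold, with a blocked log2 fold change of 1.15 (SE 0.25, edgeR unadjusted p = 0.00644). Both were higher with SR-717 in 3 of 3 pairs, also where their levels were a few CPM. H-151 over PBS, Cxcl1 stood at 0.0729-fold, 8.34-fold and 1.22-fold and Cxcl2 at 0.177-fold, 2.49-fold and 0.973-fold. The rise over PBS in pair 2 was thus not particular to SR-717.

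Cxcl3 stood at 5.07-fold, 3.50-fold and 1.51-fold, with a blocked log2 fold change of 1.66 (SE 0.38, edgeR unadjusted p = 0.00807). Cxcl5 stood at 3.23-fold, 14.4-fold and 1.34-fold, with 1.92 (SE 0.65, edgeR unadjusted p = 0.0333), and its pair 2 compares 12.8 with 0.888 CPM. All tested ELR ligands thus passed within pairs. H-151 over PBS, Cxcl3 stood at 0.167-fold, 1.69-fold and 1.08-fold and Cxcl5 at 0.216-fold, 9.55-fold and 0.233-fold.

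Among CC ligands, Ccl2 stood at 1.79-fold, 1.40-fold and 1.92-fold in the pairs, with a blocked log2 fold change of 0.75 (SE 0.19, edgeR unadjusted p = 0.0109). Ccl6 stood at 2.82-fold, 1.29-fold and 2.12-fold, with 0.98 (SE 0.25, edgeR unadjusted p = 0.0126). Ccl7 was at 0.72, Ccl3 at 0.96, Ccl4 at 0.97 and Ccl19 at 1.08 on the same scale, each higher in 3 of 3 pairs. Cxcl14 was at 0.97 and also higher in 3 of 3 pairs. H-151 over PBS, Cxcl14 stood at 0.267-fold, 2.04-fold and 2.04-fold and Ccl6 at 0.976-fold, 1.28-fold and 1.76-fold.

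The receptors were less even. Ccr2, with a blocked log2 fold change of 1.11 (SE 0.41, edgeR unadjusted p = 0.0439), stood at 3.76-fold and 2.57-fold in pairs 1 and 2 and at 0.984-fold in pair 3. Cxcr2, at 1.20 (SE 0.46, edgeR unadjusted p = 0.0494), stood at 4.42-fold, 1.00-fold and 2.68-fold. Cxcr4 was at 0.51 (edgeR unadjusted p = 0.0293), which is under 1.5-fold.

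SR-717 was higher in all 3 pairs for 19 of 42 members, beside 11.0% of genes, and lower in all 3 for 1, beside 12.4% of genes. Without pair 1, which holds both libraries that stood apart, the blocked fit called 5 members, Cxcl1, Cxcl2, Ccl6, Ccl7 and Cxcl14, beside 99 of 14166 genes that rose. Without pair 2 it called 11 members beside 524 of 14056 genes, and without pair 3 it called 13 beside 946 of 14287 genes. Neutrophil markers summed to 15041 against 3670 CPM in pair 1, to 3995 against 3033 CPM in pair 2 and to 2608 against 613 CPM in pair 3, higher with SR-717 in each. Macrophage markers summed to 3321 against 1813, 1405 against 1311 and 1284 against 987 CPM. The part of these cells in the paired differences was not tested.

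**Figure D4:**
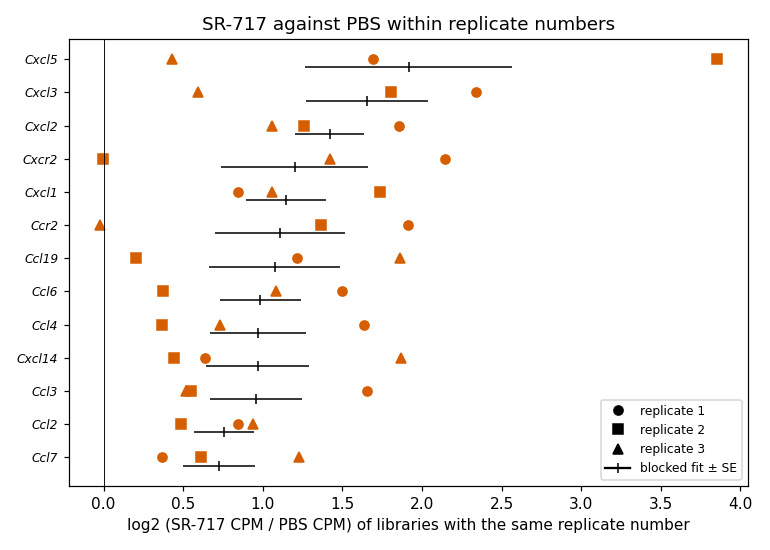
The horizontal axis is the log2 ratio of CPM with SR-717 to CPM with PBS between libraries of the same replicate number, and each row is 1 of the chemokine genes past the thresholds in the fit with the replicate block, with a symbol for each of the 3 pairs and a bar for the blocked fit with 1 SE to each side. Cxcl2 lies right of 0 in all pairs (3.62-fold, 2.40-fold and 2.08-fold), while pair 3 of Ccr2 lies just left of 0.

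Over the fit without pairing, the log2 fold change of SR-717 over PBS was above 0 for 37 of 42 members with a median of 0.76, beside 0.01 over all genes. Without SR-717 replicate 1 it was above 0 for 17, with a median of -0.09. Ccl3 then went from 1.60 to -2.79, Cxcl2 from 1.83 to -2.48 and Cxcl5 from 1.71 to -2.25. The groups did not overlap with SR-717 higher for Ccl9, Ccl12 and Cx3cr1, 3 of 42 members beside 1.49% of genes, and with SR-717 lower for Ackr3, 1 member beside 2.26% of genes.

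The comparison of H-151 with PBS asked what the inhibitor changed. In edgeR's test 0 of 42 members rose past the thresholds, where 0.263% of genes did, and 0 fell, where 0.163% did. Before adjustment, edgeR and DESeq2 each put 0 members below 0.05, and 0 members and 0% of genes had an adjusted p under 0.05. The log2 fold changes were -2.53 for Ccl3 (SE 1.38), -2.23 for Cxcl1 (SE 1.55), -1.995 for Ccl4 (SE 1.33), -1.99 for Cxcl2 (SE 1.43), -1.89 for Cxcl3 (SE 1.24) and -1.26 for Cxcl10 (SE 0.80), and 0.00 for Cxcr4 (SE 0.48). With 1 library left out, the log2 fold change went as high as 0.79 for Ccl3, 2.11 for Cxcl1 and 0.83 for Ccl4. It reached 1.62 for Cxcl2, 1.00 for Cxcl3 and 0.08 for Cxcl10, so that each of these ligands changed sign between fits. Without PBS replicate 1, 1 member and 75 of 14229 genes rose past the thresholds, and without PBS replicate 3, 2 members and 95 of 14252 genes fell.

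Libraries with the same number deviated together here too. With the replicate block Ccl4 fell past the thresholds, 1 of 42 members where 0.44% of genes did, and 0 rose, where 1.43% did. H-151 over PBS it stood at 0.204-fold, 0.895-fold and 0.480-fold in the pairs, with a blocked log2 fold change of -1.29 (SE 0.45, edgeR unadjusted p = 0.0292, adjusted p = 1). Without pair 1 this call was lost, and Ccl6, Cxcl14, Cxcr2 and Cxcr4 rose, beside 211 of 14132 genes. Without pair 2 Ccl4 and Cxcl5 fell, beside 212 of 14074 genes, and Ackr1 rose, beside 326 genes. Without pair 3 Ccl3, Ccl4, Cxcl9 and Cxcl10 fell, beside 1.06% of genes.

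The log2 fold change of H-151 over PBS was above 0 for 17 of 42 members, with a median of -0.15 beside -0.02 over all genes. Without PBS replicate 1 it was above 0 for 35, with a median of 0.39. H-151 was higher in all 3 pairs for 2 members, beside 10.1% of genes, and lower in all 3 for 5, beside 11.5%. The groups did not overlap with H-151 lower for Ccl12, 1 member beside 2.31% of genes, and with H-151 higher for 0 members, beside 1.56% of genes. The comparisons share libraries, PBS in the last pair and SR-717 or H-151 in the others, so that they are not independent of each other.

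By class, the summed level of the ligands was 3879 CPM in SR-717 replicate 1, 1934 CPM in PBS replicate 1 and between 1119.7 and 1362 CPM in the other libraries. The receptors summed to 880.2, 364 and between 234 and 296 CPM in the same order. The atypical receptors did not have this order, at 77.2, 79.4 and 88.8 CPM with PBS, 83.7, 97.7 and 82.5 CPM with H-151 and 73.7, 69.0 and 78.0 CPM with SR-717. The homeostatic ligands, most of whose sum is Cxcl12, ranged from 715 to 1178 CPM. T and NK cell markers, 10 of 10 with counts in every library, summed to 78.0 CPM in SR-717 replicate 1, to between 18.2 and 32.7 CPM with PBS, to between 17.8 and 33.2 CPM with H-151 and to 24.8 and 38.6 CPM in the other SR-717 libraries, and their part in the levels of Cxcr3 and Ccl5 was not tested.

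**Figure D5:**
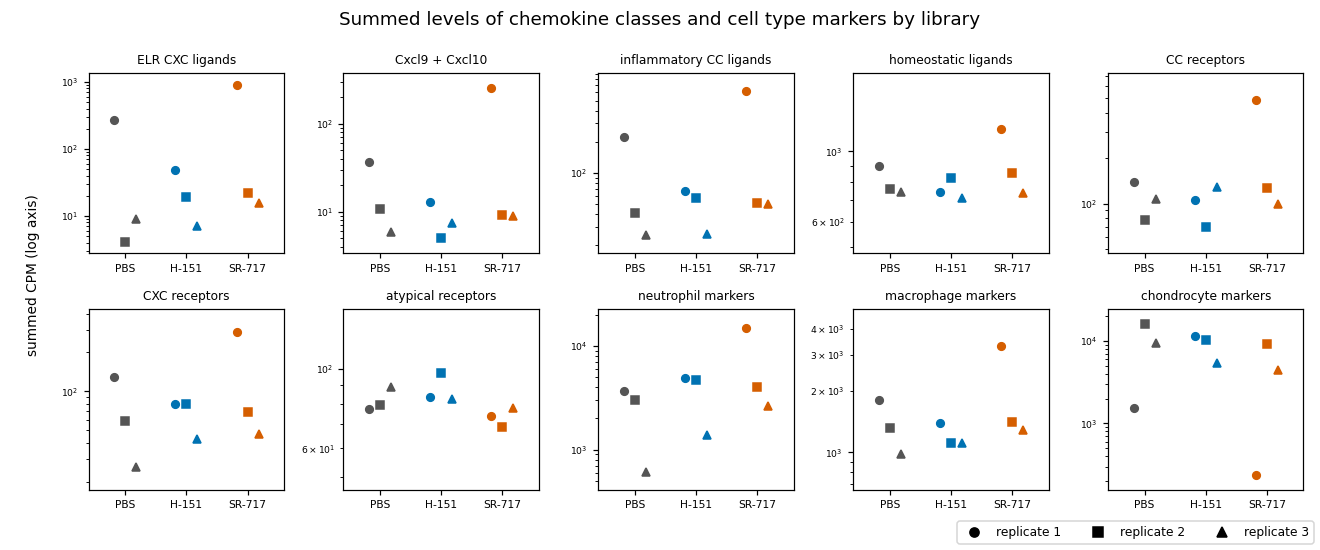
Each panel shows the summed CPM of 1 class of chemokine genes or of 1 list of cell type markers on a log axis, by group, with a symbol for each replicate number. The ELR ligands span 4.14 to 909 CPM, the atypical receptors 69.0 to 97.7 CPM and the neutrophil markers 613 to 15041 CPM.

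The pathway around the members was represented by 35 tested genes outside the symbol pattern, such as other chemokines, adaptors, G protein subunits and integrins. For SR-717 against H-151 and against PBS, 0 of the 35 passed the thresholds in edgeR's test in either direction, with median log2 fold changes of 0.46 and 0.45 that were -0.06 and -0.09 without SR-717 replicate 1. Of all genes tested, 0.367% and 0.27% rose past the thresholds in these comparisons, and 0.389% and 0.249% fell. For H-151 against PBS 1 rose, where 0.263% of genes did, and 0 fell, where 0.163% did. It was Dpp4, a protease that trims chemokines, at 0.85 (SE 0.28, edgeR unadjusted p = 0.0209, adjusted p = 1.000). With the replicate block 6 rose for SR-717 against PBS, where 2.43% of genes did, namely Dpp4 at 0.70, the platelet chemokine Ppbp at 1.36, the migration regulators Dock2 at 0.67 and Was at 0.69, the kinase Pik3cg at 0.81 and the leukocyte integrin Itgb2 at 0.69. For H-151 against PBS 2 rose, where 1.43% of genes did, Dpp4 at 0.87 and Ppbp at 1.91. None of these passed a correction over all genes. Ppbp was at 7.08, 55.6 and 3.03 CPM with PBS, at 50.2, 54.0 and 26.8 CPM with H-151 and at 12.8, 101 and 17.3 CPM with SR-717, so that, other than Cxcl1, Cxcl2, Cxcl3 and Cxcl5, it was low in SR-717 replicate 1. Pf4, another platelet chemokine, lay between 16.7 and 48.7 CPM and did not pass in any comparison, with or without the block.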

How the data were processed

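Poly(A) RNA of fracture callus was sequenced as strand-specific paired reads through a service company. The labels' extraction text speaks of cell lines, whereas the tissue is labelled bone. The authors deposited expected counts per gene, not normalized, and TPM, scaled by the authors for transcript length and depth. The submitters' processing notes name mm10, and the aligner, the counting program and the use of strand are not given in the sources used here. Of the expected counts, 8.91% were not whole (11.9% of those of the members), and all were rounded for the tests. The design had assumed whole counts.

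In R 4.3.3, edgeR 4.0.16 was run on all genes of the 6 libraries of 2 groups, with filterByExpr, TMM scaling, glmQLFit and glmQLFTest and no covariates. Members were counted at an unadjusted p under 0.05 with at least 1.5-fold change (the thresholds), and also at 0.05 after Benjamini-Hochberg adjustment. SE is the log2 fold change divided by the square root of F. Tests covered 14151, 14070 and 14085 genes for SR-717 against H-151, SR-717 against PBS and H-151 against PBS. In simulated counts of 100 genes changed 4-fold, edgeR recovered 96, 92 and 96 at the thresholds and 60, 39 and 76 at an adjusted p under 0.05 in these comparisons. Of 100 genes changed 2-fold it recovered 80, 67 and 79 at the thresholds and 5, 1 and 18 after adjustment. In the simulation a gene had the same expected level in all libraries of a group, so that no library stood apart. It therefore does not show the recovery for members whose spread comes from such a library. Totals of 16987398 to 23272480 counts leave few counts for members at a few CPM, whose values are then less precise.

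Pairing comes from the replicate numbers in the labels. Same-numbered libraries deviated together from their group means, with r = 0.65, 0.34 and 0.14 for numbers 1 to 3 of SR-717 and PBS and r = 0.30, 0.49 and 0.50 for H-151 and PBS, but r = 0.34, 0.06 and 0.08 for SR-717 and H-151. SR-717 replicates 2 and 3 correlated with a PBS library of another number at r = 0.20 and 0.34. Deviations from the mean of 3 libraries sum to 0. A library numbered 1 that stands apart in both groups therefore also raises r among the other numbers. The r of numbers 2 and 3 of SR-717 and PBS thus cannot show that these numbers are paired.

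Alternatives were DESeq2 1.42.0 (size factors, and the Wald test), no filter, all 9 libraries in 1 fit, the replicate block and each library left out. The block without each number, and both libraries numbered 1 left out, were chosen after seeing the data. The members, lists and tests were chosen with earlier results of these data known. Members given per library are those past the thresholds in any comparison, the 8 ligands and 6 receptors of highest mean TPM, the 8 tested members with the largest ratio of libraries, and a fixed set of ELR, interferon-induced and leukocyte axis genes. Others are given as ranges. A member named for its paired values or a pair of non-overlapping groups was chosen after its values were seen. Positions are from GENCODE for GRCm38 and promoters from RefSeq. The values of 1 tested receptor are not reported here, though it is part of the counts, medians and sums.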

Additional observations from a re-analysis of the deposited data

How the results depend on the processing

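No member reached an adjusted p under 0.05 in any of the fits run. Of members past the thresholds, 4 of 43 rose for SR-717 against H-151 with edgeR (0.367% of genes) and 3 with the replicate block (0.622%). In these groups libraries numbered 1 deviated together (r = 0.34), while those numbered 2 and 3 hardly did (r = 0.06 and 0.08). With no filter on low counts 7 of 59 members rose (0.68% of genes), and 5 with all 9 libraries in 1 fit (0.763%). With 1 library left out 0 to 13 rose, the 13 beside 3.79% of genes. The 3 under the block were Ccl19, Ccl4 and Cxcl5, and Ccl12 (log2 fold change 1.11), Cxcl3 (2.18) and Cxcl9 (1.95) no longer passed. With alternatives chosen after seeing the data, the count was 0 for the block without number 1 (0.269% of genes rose) and 8 for the block without number 2 (1.3%). It was 3 for the block without number 3 (3.87%) and 0 without both libraries numbered 1 (0.297%). For SR-717 against PBS 0 rose with edgeR, 2 with DESeq2's Wald test (0.661% of genes), 2 with all 9 libraries in 1 fit (0.819%), 13 with the replicate block (2.43%) and 0 to 6 with 1 library left out. Those chosen after seeing the data gave 5, 11 and 13 for the block without numbers 1, 2 and 3, and 3 without both libraries numbered 1, where 0.579% of genes rose. For H-151 against PBS 0 fell with edgeR, 1 with the replicate block, 0 to 2 with 1 library left out, and 2 and 4 with the block without numbers 2 and 3, while 0 rose with edgeR, 0 to 1 with 1 library left out, and 4 and 1 with the block without numbers 1 and 2. The cause of these shifts was not tested. Of the values of Ccl12, Ccl19, Cxcl3 and Cxcl9 in SR-717 against H-151 under the alternatives, 24 kept their side of the threshold and 34 kept their direction without passing. Other members reversed: in SR-717 against PBS without the block, Ccl3, Cxcl2 and Cxcl5 went below 0 without SR-717 replicate 1. In H-151 against PBS without the block, Ccl3, Ccl4, Cxcl1, Cxcl2, Cxcl3 and Cxcl10 went above 0 in a fit with 1 library left out. DESeq2 gave no p for Cxcl3 and Cxcl9 in SR-717 against H-151. Over all genes, SR-717 against H-151 had 52 higher and 55 lower with edgeR, 147 and 62 with DESeq2's Wald test, 88 and 55 with the block, 123 and 100 with no filter and 109 and 62 with all 9 libraries. SR-717 against PBS had 38 and 35 with edgeR and 342 and 101 with the block, and H-151 against PBS 37 and 23, and 201 and 62. In simulated counts most 2-fold changes passed the thresholds in each comparison, and few passed after adjustment. The simulation held no library that stood apart from its group, and so does not show the recovery for members with such a spread.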
